A study of Mus musculus with 8 samples.

Results

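The 46 genes described here carry glucose through glycolysis to lactate, branch it into the pentose phosphate pathway, or sense and answer a lack of oxygen through the hypoxia-inducible factors (HIFs). They were chosen by name for these roles and were all found among the 55226 genes of the table of transformed expression values. They comprise 3 hexokinases, 7 genes of upper glycolysis, 7 of lower glycolysis and lactate formation, 4 regulators of flux, 8 HIF subunits and HIF regulators, 10 HIF targets and 7 pentose phosphate enzymes. A mean level of at least 3 log2 units was required for testing, which 43 of the 46 met. Adm, Ddit4 and Rpia did not.

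The RNA came from mouse bone marrow-derived macrophages, which are macrophages grown out of bone marrow cells, here over 7 days with the growth factor M-CSF. There were 4 groups of 2 samples each. They were cells of PtipcKO mice, a conditional knockout of Ptip (cKO), after 6 h of 100 ng/ml lipopolysaccharide (LPS, a bacterial cell wall component), cKO cells at 0 h, cells of PtipWT mice (WT) after 6 h of LPS, and WT cells at 0 h, called here cKO LPS, cKO 0 h, WT LPS and WT 0 h cells. All mice were labelled C57BL/6. PTIP, the product of Paxip1, belongs to a histone methyltransferase complex. Neither the Cre driver nor the age of the mice is given in the sources used here. The series text calls the samples biological replicates, and the labels do not say whether a number marks a mouse, so each p-value speaks only to the spread among these samples.

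Glycolysis splits glucose into pyruvate and yields a little ATP without oxygen, and lactate dehydrogenase turns pyruvate into lactate. The pentose phosphate pathway leaves glycolysis at glucose 6-phosphate and supplies NADPH and ribose. HIF is a pair of an oxygen-labile alpha subunit and a stable beta subunit. Prolyl hydroxylases mark the alpha subunit for destruction through the VHL protein while oxygen is present. Macrophages stimulated with LPS are known for raised glycolysis and for HIF-1 alpha that accumulates even in air.

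Levels are given on the rlog scale, a log2 scale on which the authors adjusted for depth and pulled genes with few reads toward their mean, so that differences of low genes are understated. The depth of the samples is unknown. In these bulk samples, fewer cells of a type and less RNA per cell cannot be told apart. Paxip1 read 2.54 and 2.63 in cKO LPS cells, 2.54 and 2.48 in cKO 0 h cells, 3.82 and 4.08 in WT LPS cells, and 4.50 and 4.50 in WT 0 h cells. The genotypes did not overlap, as for 53.0% of all tested genes after LPS and 41.2% at 0 h. Its cKO minus WT difference passed (limma adjusted p under 0.05) after LPS (-1.36) and at 0 h (-1.99). Each of these calls was lost in 3 of 17 alternatives. Over single left-out samples the difference ran from -1.5 to -1.23 after LPS and from -2.02 to -1.96 at 0 h. With LPS in WT Paxip1 fell (-0.55), a call lost in 11 of 18 alternatives. The LPS indicators Nos2, Il6, Tnf and Cxcl10 all rose with LPS in both genotypes. All 8 macrophage markers were tested, with levels of 7.02 to 19.31. Cd3e of the T cell list and Col1a1 of the stromal list were below the minimum. Each of these lists had 1 tested gene, and levels reached 8.06 in the T cell list and 6.28 in the stromal list. Of the dendritic cell list, 4 of 6 genes were tested, with levels up to 11.14. Of the mast cell and basophil list, 3 of 4 were, with levels up to 5.05. Lck of the T cell list (2.99 in cKO and 3.15 in WT), Pdgfrb of the stromal list (2.53 in cKO and 2.85 in WT) and the neutrophil gene Camp (1.84 in cKO and 1.19 in WT) rose with LPS, as did the neutrophil gene S100a8 in WT (0.65). In WT the call of Camp was lost in 8 of 19 alternatives (0.69 without WT LPS replicate 2 and 0.70 without WT 0 h replicate 1) and that of S100a8 in 7 of 19 (0.38 without WT 0 h replicate 1). The part of these markers in the LPS results was not tested. Samples of a group correlated at r = 0.987 to 0.992 across genes, which are not independent replicates.

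**Figure D1:**
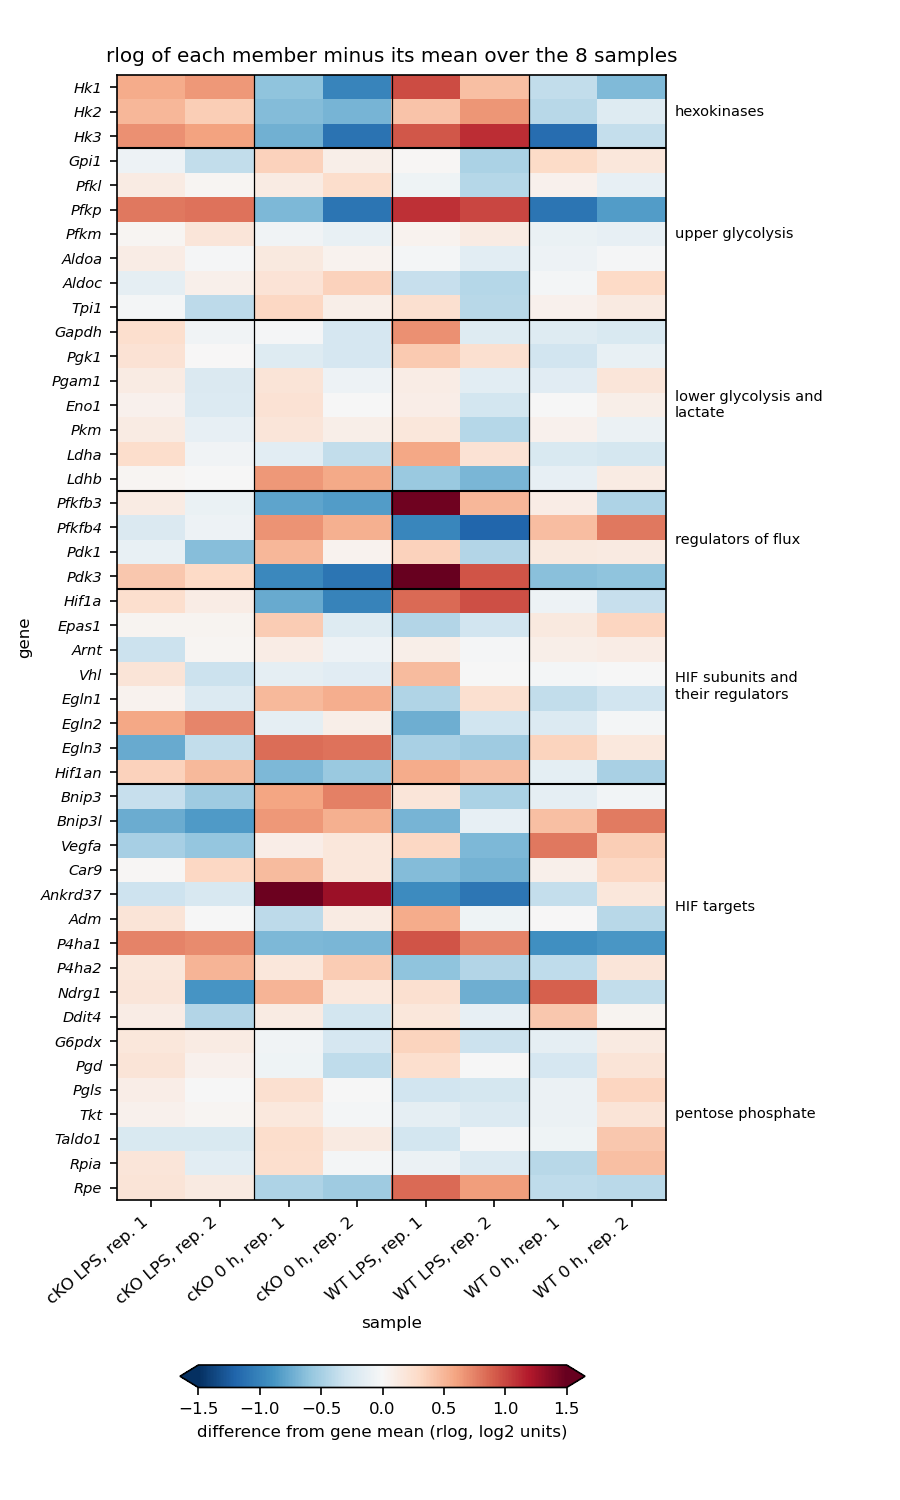
Level of the 46 genes (rows, by role) in the 8 samples (columns, 2 per group) as the rlog value minus the gene's mean over all samples, in log2 units. Hk1, Hk2, Hk3, Pfkp, Pdk3 and P4ha1 are above their means in the LPS samples of both genotypes, while Ankrd37 is highest in cKO 0 h cells and lowest in WT LPS cells.

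The first question was how LPS changed these genes in each genotype. In cKO cells, 10 of the 43 tested genes rose and 6 fell, or 37.2%, beside 37.0% of all tested genes, of which 19.6% rose and 17.5% fell (limma, Benjamini-Hochberg adjusted p under 0.05 over 11543 genes). In WT cells, 12 rose and 7 fell, or 44.2%, beside 42.2% of all tested genes, of which 22.5% rose and 19.7% fell. Both shares lie near the background. The balance of directions depended on the scaling: under quantile normalization, 9 genes were higher and 14 lower in cKO, and 9 were higher and 17 lower in WT. The median of the 43 genes was then -0.21 in cKO and -0.42 in WT, beside -0.08 in cKO and -0.09 in WT for all tested genes. With 2 samples a group, LPS and 0 h samples did not overlap in 72.5% of all tested genes in cKO and 71.3% in WT. The median log2 change of the 43 genes was -0.06 in cKO and -0.07 in WT, beside -0.02 in cKO and -0.01 in WT for all tested genes. All 3 hexokinase genes, the platelet-type phosphofructokinase gene Pfkp, the pyruvate dehydrogenase kinase gene Pdk3, Hif1a with its inhibitor Hif1an, P4ha1 and Rpe rose in both genotypes, while Ldhb, Pfkfb4, Egln3, Bnip3l and Ankrd37 fell in both. In the authors' deposited table, all 16 of the cKO calls passed in the same direction and 14 of the 19 WT calls did. Aldoc, Pgk1, Egln3, Car9 and Ankrd37 were the WT calls that did not pass there.

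**Figure D2:**
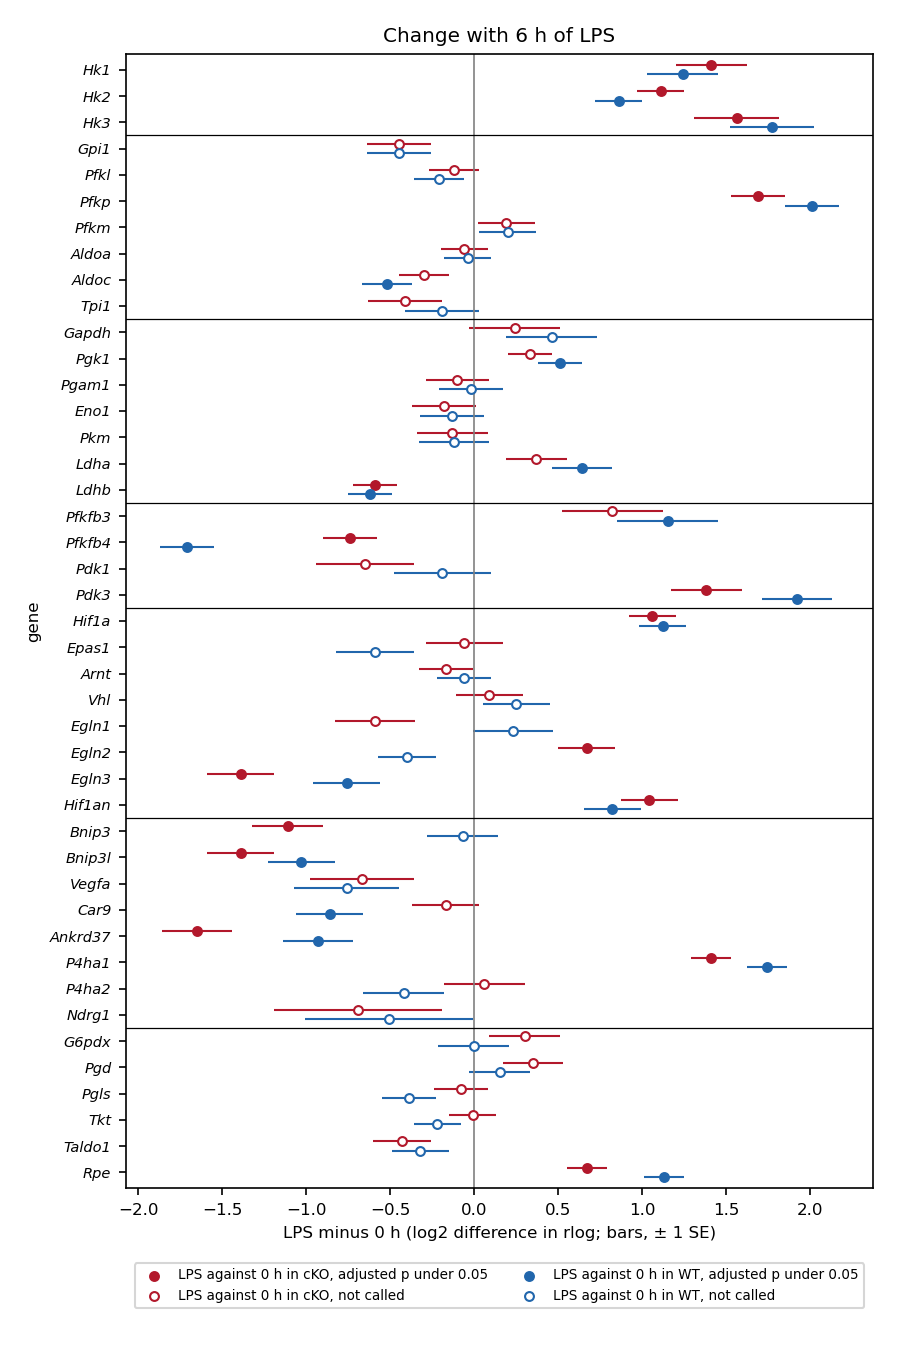
LPS minus 0 h, as the log2 difference in rlog with 1 SE from limma, for the 43 tested genes by role in cKO (red, upper) and WT (blue, lower). Filled points passed an adjusted p of 0.05: 16 in cKO and 19 in WT. Changes run from -1.65 (Ankrd37) to 1.69 (Pfkp) in cKO and from -1.71 (Pfkfb4) to 2.01 (Pfkp) in WT.

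Hexokinases phosphorylate glucose and so trap it in the cell, and all 3 rose with LPS. Hk3, the hexokinase best known from blood cells, read 12.40 and 12.31 in cKO LPS cells, 10.99 and 10.60 in cKO 0 h cells, 12.64 and 12.82 in WT LPS cells, and 10.57 and 11.35 in WT 0 h cells. Hk1, the widely expressed form, read 10.31 and 10.41 in cKO LPS cells, 9.15 and 8.76 in cKO 0 h cells, 10.73 and 10.21 in WT LPS cells, and 9.38 and 9.09 in WT 0 h cells. Hk2, the form known to respond to insulin and to HIF, read 9.67 and 9.54 in cKO LPS cells, 8.52 and 8.47 in cKO 0 h cells, 9.60 and 9.83 in WT LPS cells, and 8.75 and 8.97 in WT 0 h cells. For each of the 3, both LPS samples lay above both 0 h samples of their genotype. The rises were 1.56 (SE 0.25, limma adjusted p = 0.00157) in cKO and 1.77 (SE 0.25, limma adjusted p = 0.000647) in WT for Hk3, 1.41 in cKO and 1.24 in WT for Hk1 (SE 0.21 each), and 1.11 in cKO and 0.86 in WT for Hk2 (SE 0.14 each). Per kilobase of exon, Hk3 was the highest of the 3 in every sample, at 10.48 ± 0.07 in cKO LPS cells, 8.91 ± 0.28 in cKO 0 h cells, 10.85 ± 0.12 in WT LPS cells and 9.08 ± 0.55 in WT 0 h cells (log2, SD, n = 2). Hk2 per kilobase was 7.02 ± 0.09 in cKO LPS cells, 5.92 ± 0.04 in cKO 0 h cells, 7.14 ± 0.17 in WT LPS cells and 6.28 ± 0.15 in WT 0 h cells. The per-kilobase order of Hk1 and Hk2 differed between replicates in all groups but cKO LPS. Before length was subtracted, Hk1 read above Hk2 in every sample, so their order depended on the exon lengths used (8.53 kb for Hk1 and 5.97 kb for Hk2).

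Of the 7 genes of upper glycolysis, all tested, Pfkp rose in both genotypes, Aldoc fell in WT cells, and no other gene passed. Under quantile normalization Gpi1, Pfkl, Aldoa and Tpi1 passed as lower with LPS in both genotypes, with differences of -0.84 to -0.52 in cKO and -0.80 to -0.72 in WT. Phosphofructokinase makes the committed step, and Pfkp, Pfkl and Pfkm encode its platelet, liver and muscle forms. Pfkp read 11.90 and 11.92 in cKO LPS cells, 10.43 and 10.01 in cKO 0 h cells, 12.20 and 12.11 in WT LPS cells, and 10.01 and 10.27 in WT 0 h cells. It rose 3.22-fold in cKO (1.69, SE 0.16, limma adjusted p = 0.000134) and 4.03-fold in WT (2.01, SE 0.16, limma adjusted p = 4.14e-05), with LPS and 0 h samples well apart. Pfkl read 11.75 and 11.65 in cKO LPS cells, 11.75 and 11.89 in cKO 0 h cells, 11.56 and 11.19 in WT LPS cells, and 11.68 and 11.50 in WT 0 h cells. Its LPS difference was -0.12 in cKO (95% interval -0.47 to 0.23) and -0.21 in WT (-0.57 to 0.14), and neither passed. Pfkm was low throughout, with 5.02 and 5.17 in cKO LPS cells, 4.94 and 4.88 in cKO 0 h cells, 5.05 and 5.12 in WT LPS cells, and 4.89 and 4.87 in WT 0 h cells. Per kilobase, Pfkl exceeded Pfkp in all 8 samples, by 0.79 in cKO LPS cells, 2.60 in cKO 0 h cells, 0.23 in WT LPS cells and 2.45 in WT 0 h cells (mean log2 difference). The gap per kilobase between the liver and platelet forms was thus narrower after LPS in both genotypes, with no overlap between samples (a description, not tested). Before length was subtracted, Pfkp read above Pfkl in each LPS sample and below it in each 0 h sample. Which form was higher after LPS therefore depended on the exon lengths used (13.4 kb for Pfkp and 6.68 kb for Pfkl). In Pfkp, 17.1% of the 50-base stretches of its longest coding transcript also occur in Pitrm1, an overlapping gene on the opposite strand.

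**Figure D3:**
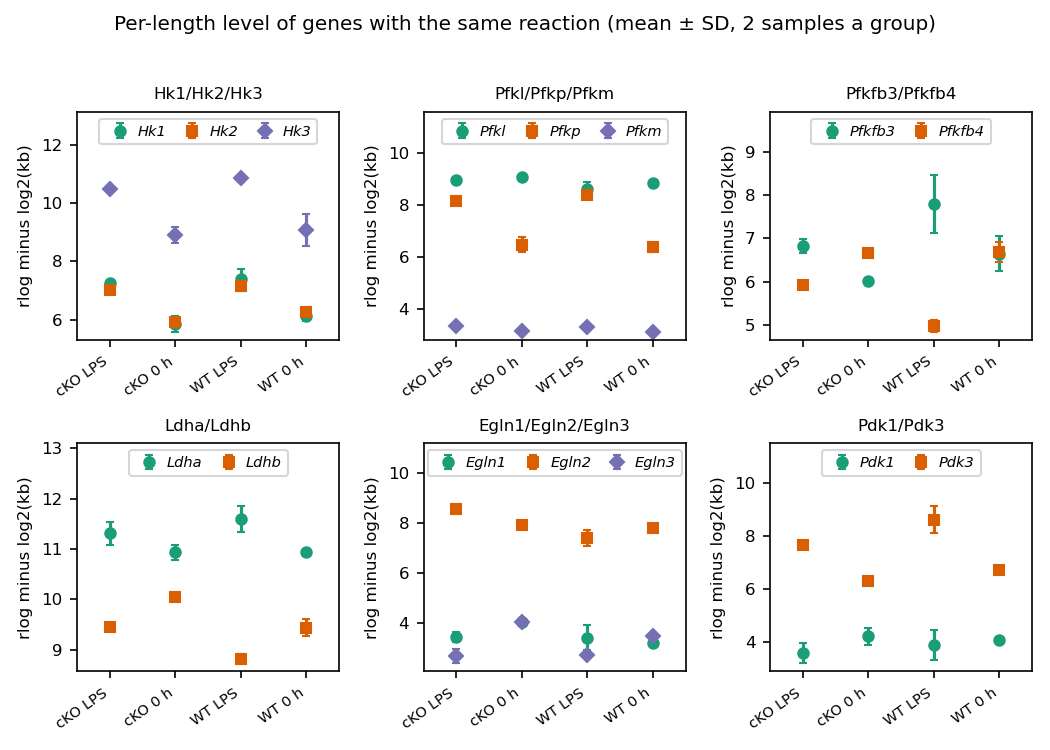
Mean level per kilobase of exon (rlog minus log2 of the length in kb) with the SD of 2 samples, for isoforms of 6 enzymes in 4 groups. Hk3, Egln2 and Pdk3 stand above their partners in every group, Pfkp comes near Pfkl after LPS, and Pfkfb3 exceeds Pfkfb4 after LPS, by 0.92 in cKO and 2.83 in WT.

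The aldolases split fructose 1,6-bisphosphate. Aldoa read 13.91 and 13.78 in cKO LPS cells, 13.95 and 13.85 in cKO 0 h cells, 13.77 and 13.65 in WT LPS cells, and 13.73 and 13.78 in WT 0 h cells. Its LPS difference was -0.06 in cKO (95% interval -0.38 to 0.27) and -0.04 in WT (-0.37 to 0.29). Aldoc, the brain form, read 9.93 and 10.14 in cKO LPS cells, 10.27 and 10.41 in cKO 0 h cells, 9.72 and 9.64 in WT LPS cells, and 10.04 and 10.36 in WT 0 h cells. It fell by 0.52 in WT (SE 0.15, limma adjusted p = 0.0207), and its difference in cKO was -0.30 (limma adjusted p = 0.14). The WT call was lost without WT 0 h replicate 2 (-0.36) and without WT LPS replicate 2 (-0.48). It was also lost without the minimum level and with a correction for GC content and length. Per kilobase, Aldoa exceeded Aldoc by 3.72 to 4.20 across the 4 group means. Gpi1, which makes fructose 6-phosphate, and Tpi1, which interconverts the 2 triose phosphates, passed in neither genotype: the LPS difference of Gpi1 was -0.45 in each (limma adjusted p = 0.0937 in cKO and 0.0829 in WT), and that of Tpi1 was -0.41 in cKO and -0.19 in WT.

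Of the 7 genes of lower glycolysis and lactate formation, Ldhb fell in both genotypes, and Ldha and Pgk1 rose in WT cells. Ldha, the subunit that favours lactate formation, read 13.19 and 12.87 in cKO LPS cells, 12.77 and 12.56 in cKO 0 h cells, 13.50 and 13.14 in WT LPS cells, and 12.70 and 12.66 in WT 0 h cells. Ldhb, the subunit that favours pyruvate, read 10.12 and 10.09 in cKO LPS cells, 10.74 and 10.66 in cKO 0 h cells, 9.53 and 9.41 in WT LPS cells, and 9.97 and 10.21 in WT 0 h cells. LPS and 0 h samples did not overlap for either gene in either genotype, and the differences of the pair had opposite signs. In Ldhb, 27.0% of the 50-base stretches also occur in Gm5514. Ldhb fell by 0.59 in cKO (SE 0.13, limma adjusted p = 0.00666) and by 0.62 in WT (SE 0.13, limma adjusted p = 0.00451). Ldha rose by 0.64 in WT (SE 0.18, limma adjusted p = 0.0192), and its difference in cKO was 0.37 (SE 0.18, limma adjusted p = 0.136). Per kilobase, Ldha exceeded Ldhb by 1.85 in cKO LPS cells, 0.89 in cKO 0 h cells, 2.77 in WT LPS cells and 1.51 in WT 0 h cells (mean log2 difference). The excess of Ldha was thus greater after LPS than at 0 h in each genotype, and smaller in cKO than in WT at each time (a description, not tested).

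Pgk1, which makes the first ATP of the pathway, read 11.09 and 10.88 in cKO LPS cells, 10.68 and 10.63 in cKO 0 h cells, 11.27 and 11.12 in WT LPS cells, and 10.59 and 10.77 in WT 0 h cells. It rose by 0.51 in WT (SE 0.13, limma adjusted p = 0.0134), and its difference in cKO was 0.33 (limma adjusted p = 0.077). Under quantile normalization both WT rises turned: the LPS difference became -0.11 for Ldha (limma adjusted p = 0.62) and -0.00118 for Pgk1 (limma adjusted p = 0.995). The call was also lost without WT 0 h replicate 1 (0.66 for Ldha and 0.42 for Pgk1) and without WT LPS replicate 1 (0.46 for Ldha and 0.44 for Pgk1). That of Ldha was lost as well without WT 0 h replicate 2 (0.62) and without the minimum level. The remaining 4 genes, Gapdh, Pgam1, Eno1 (enolase) and Pkm (pyruvate kinase), passed in neither genotype, with LPS differences from -0.18 to 0.24 in cKO and from -0.13 to 0.46 in WT. Under quantile normalization Eno1 (-0.64 in cKO and -0.81 in WT) and Pkm (-0.64 in cKO and -0.84 in WT) passed as lower. These genes have many pseudogene copies. The share of 50-base stretches that also occur in another gene was 82.5% for Gapdh, 72.2% for Eno1, 68.0% for Pgk1 and 41.5% for Pgam1, so how reads were split among copies makes these values uncertain. Gapdh, a glyceraldehyde 3-phosphate dehydrogenase gene that is abundant in most cells, read only 7.45 to 8.39.

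Of the 4 regulators of flux, 1 rose and 1 fell in cKO cells, and 2 rose and 1 fell in WT cells. Pfkfb3 and Pfkfb4 make fructose 2,6-bisphosphate, the main activator of phosphofructokinase, and their LPS differences had opposite signs in both genotypes. Pfkfb3 read 9.87 and 9.64 in cKO LPS cells, 8.95 and 8.91 in cKO 0 h cells, 11.20 and 10.24 in WT LPS cells, and 9.85 and 9.28 in WT 0 h cells. Pfkfb4 read 8.13 and 8.27 in cKO LPS cells, 9.02 and 8.87 in cKO 0 h cells, 7.36 and 7.15 in WT LPS cells, and 8.80 and 9.13 in WT 0 h cells. For Pfkfb4 the LPS samples of each genotype lay below its 0 h samples, and WT after LPS was the lowest group. Pfkfb4 fell to 0.598 of its 0 h level in cKO (-0.74, SE 0.16, limma adjusted p = 0.00641) and to 0.305 in WT (-1.71, SE 0.16, limma adjusted p = 7.27e-05). The cKO call was lost without cKO LPS replicate 1 (-0.67, limma adjusted p = 0.0513). Pfkfb3 rose by 1.15 in WT (SE 0.30, limma adjusted p = 0.0145), and its difference in cKO was 0.82 (SE 0.30, limma adjusted p = 0.0599). The WT call was lost under quantile normalization (0.76), without the minimum level, without WT 0 h replicate 2 (0.87) and without WT LPS replicate 1 (0.67). In the authors' deposited table, Pfkfb3 passed in both genotypes, at 0.92 in cKO (adjusted p = 0.000479) and 1.28 in WT (adjusted p = 0.0024).

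Pyruvate dehydrogenase kinases shut the entry of pyruvate into the mitochondrial cycle. Pdk3 read 9.08 and 8.98 in cKO LPS cells, 7.71 and 7.59 in cKO 0 h cells, 10.34 and 9.62 in WT LPS cells, and 8.05 and 8.08 in WT 0 h cells. It rose by 1.38 in cKO (SE 0.21, limma adjusted p = 0.00142) and by 1.92 in WT (SE 0.21, limma adjusted p = 0.000197), with no overlap. Pdk1, the kinase known as a HIF target, read between 6.25 and 7.39 over the 8 samples and passed in neither genotype (-0.65 in cKO and -0.19 in WT). Per kilobase, Pdk3 exceeded Pdk1 in all 8 samples.

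Among the HIF subunits, Hif1a rose while its partners did not pass. Hif1a read 10.35 and 10.21 in cKO LPS cells, 9.34 and 9.09 in cKO 0 h cells, 10.95 and 11.06 in WT LPS cells, and 10.02 and 9.75 in WT 0 h cells. The 4 groups did not overlap, and WT after LPS was the highest. Hif1a rose 2.09-fold in cKO (1.06, SE 0.14, limma adjusted p = 0.000779) and 2.18-fold in WT (1.12, SE 0.14, limma adjusted p = 0.00044). Epas1, which encodes HIF-2 alpha, was near the minimum, with 3.64 and 3.64 in cKO LPS cells, 3.98 and 3.41 in cKO 0 h cells, 3.16 and 3.32 in WT LPS cells, and 3.75 and 3.92 in WT 0 h cells. Its LPS difference was -0.06 in cKO and -0.59 in WT (limma adjusted p = 0.0646). Per kilobase, Hif1a exceeded Epas1 by 5.28 to 7.71 log2 units in the 8 samples. Arnt, the beta subunit, had LPS differences of -0.17 in cKO and -0.06 in WT, and Vhl of 0.09 in cKO and 0.25 in WT, none of which passed.

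The hydroxylases that restrain HIF did not move as a group. Egln2, which encodes the prolyl hydroxylase PHD1, read 9.97 and 10.12 in cKO LPS cells, 9.26 and 9.48 in cKO 0 h cells, 8.66 and 9.09 in WT LPS cells, and 9.19 and 9.36 in WT 0 h cells. Both cKO LPS samples exceeded both cKO 0 h samples, and both WT LPS samples lay below both WT 0 h samples. Egln2 rose by 0.67 in cKO (SE 0.17, limma adjusted p = 0.0142), and its difference in WT was -0.40 (SE 0.17, limma adjusted p = 0.0862). The cKO call was lost under quantile normalization (0.44), without the minimum level, without cKO 0 h replicate 1 (0.57) and without cKO LPS replicate 2 (0.60). In WT the quantile-normalized difference passed (-0.57, limma adjusted p = 0.0268). Egln3 (PHD3), a hydroxylase that HIF itself induces, read 3.87 and 4.26 in cKO LPS cells, 5.46 and 5.44 in cKO 0 h cells, 4.14 and 4.09 in WT LPS cells, and 4.96 and 4.78 in WT 0 h cells. It fell by 1.39 in cKO (SE 0.20, limma adjusted p = 0.000931) and by 0.76 in WT (SE 0.20, limma adjusted p = 0.0146). The WT call of Egln3 was lost without WT 0 h replicate 1 (-0.67) and without WT LPS replicate 2 (-0.73). Egln1 (PHD2), the main oxygen sensor in many cells, read 5.40 and 5.14 in cKO LPS cells, 5.83 and 5.89 in cKO 0 h cells, 4.90 and 5.59 in WT LPS cells, and 4.98 and 5.06 in WT 0 h cells, and its LPS differences of -0.59 in cKO and 0.23 in WT did not pass.

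Hif1an, which encodes the asparagine hydroxylase FIH that blocks HIF from its coactivators, read 7.23 and 7.37 in cKO LPS cells, 6.21 and 6.32 in cKO 0 h cells, 7.44 and 7.34 in WT LPS cells, and 6.74 and 6.40 in WT 0 h cells. It rose with Hif1a, by 1.04 in cKO (SE 0.17, limma adjusted p = 0.00178) and by 0.82 in WT (SE 0.17, limma adjusted p = 0.00461). Per kilobase, Egln2 was the highest of the 3 prolyl hydroxylases in every sample, and Egln1 minus Egln2 ran from -5.34 to -3.79 log2 units.

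Of the 8 tested HIF targets, 1 rose and 3 fell with LPS in cKO, and 1 rose and 3 fell in WT, or 50% called in each, beside 37.0% of all tested genes in cKO and 42.2% in WT. P4ha1, a subunit of the enzyme that hydroxylates collagen, was the one that rose in each. It read 10.92 and 10.88 in cKO LPS cells, 9.50 and 9.48 in cKO 0 h cells, 11.12 and 10.92 in WT LPS cells, and 9.25 and 9.30 in WT 0 h cells, a rise of 1.41 in cKO (SE 0.12, limma adjusted p = 7.12e-05) and 1.74 in WT (SE 0.12, limma adjusted p = 2.12e-05). Ankrd37, a small ankyrin repeat protein induced by HIF-1, read 5.02 and 5.09 in cKO LPS cells, 6.80 and 6.61 in cKO 0 h cells, 4.38 and 4.24 in WT LPS cells, and 4.97 and 5.49 in WT 0 h cells. It fell by 1.65 in cKO (SE 0.21, limma adjusted p = 0.000584) and by 0.93 in WT (SE 0.21, limma adjusted p = 0.00834). The WT call was lost without WT 0 h replicate 2 (-0.67). In 26.4% of its exon bases Ankrd37 overlaps Lrp2bp or Ufsp2 on the opposite strand, and whether counting used the strand is not given in the sources used here.

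Bnip3 and Bnip3l encode receptors for the removal of mitochondria. Bnip3l, which shares 23.4% of its 50-base stretches with a pseudogene, read 9.29 and 9.18 in cKO LPS cells, 10.68 and 10.57 in cKO 0 h cells, 9.33 and 9.91 in WT LPS cells, and 10.48 and 10.81 in WT 0 h cells. It fell by 1.39 in cKO (SE 0.20, limma adjusted p = 0.000922) and by 1.03 in WT (SE 0.20, limma adjusted p = 0.00347). Bnip3 read 8.03 and 7.85 in cKO LPS cells, 8.97 and 9.14 in cKO 0 h cells, 8.56 and 7.90 in WT LPS cells, and 8.25 and 8.34 in WT 0 h cells. It fell by 1.11 in cKO (SE 0.21, limma adjusted p = 0.00368), and in WT the groups overlapped, with a difference of -0.07. Of the 50-base stretches of Bnip3, 62.4% also occur in another gene. Car9, a carbonic anhydrase at the cell surface, fell by 0.86 in WT (SE 0.20, limma adjusted p = 0.00827), with 4.81 and 4.75 in WT LPS cells against 5.53 and 5.76 in WT 0 h cells. In cKO it read 5.47 and 5.76 after LPS against 5.93 and 5.63 at 0 h, a difference of -0.17. The WT call was lost without WT 0 h replicate 2 (-0.74, limma adjusted p = 0.055).

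Vegfa, the vascular growth factor, had LPS differences of -0.67 in cKO and -0.76 in WT (limma adjusted p = 0.123 in cKO and 0.0783 in WT), and P4ha2 of 0.06 in cKO and -0.42 in WT. Ndrg1, a stress-induced gene, differed most between replicates, from 5.27 to 6.34 in cKO LPS cells and from 5.79 to 7.06 in WT 0 h cells, and had an SE of 0.50. Of the 2 targets below the minimum, Adm, the vessel-relaxing peptide adrenomedullin, read 2.65 and 2.45 in cKO LPS cells, 2.07 and 2.58 in cKO 0 h cells, 3.01 and 2.40 in WT LPS cells, and 2.47 and 2.04 in WT 0 h cells. Ddit4, an inhibitor of mTORC1, read 2.37 and 1.82 in cKO LPS cells, 2.38 and 1.98 in cKO 0 h cells, 2.43 and 2.14 in WT LPS cells, and 2.66 and 2.30 in WT 0 h cells. For both genes LPS and 0 h samples overlapped in each genotype.

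HIF binds DNA at a core of ACGTG or GCGTG, and the RefSeq promoter windows (GRCm38.p6, 250 bases before to 50 after a start) were searched for these letters on both strands. A window was found for 43 of the 46 genes, and 38 of the 43 (88.4%) held the letters in at least 1 window, beside 46.7% of all genes with a window. Among genes with a single window it was 26 of 31 (83.9%), beside 43.1%. The core contains a CpG, and the windows of the 43 genes held a median of 20 CpGs, beside 7 in all windows. The 250 bases before the start are shown for 5 genes, to set a target that rose with LPS (P4ha1) beside 2 that fell in cKO cells (Ankrd37 and Bnip3) and beside 2 of the hydroxylases that gave opposite changes in cKO cells (Egln2 and Egln3). Each is read 5′ to 3′ on the gene's strand, with the core letters of either strand in capitals.
P4ha1: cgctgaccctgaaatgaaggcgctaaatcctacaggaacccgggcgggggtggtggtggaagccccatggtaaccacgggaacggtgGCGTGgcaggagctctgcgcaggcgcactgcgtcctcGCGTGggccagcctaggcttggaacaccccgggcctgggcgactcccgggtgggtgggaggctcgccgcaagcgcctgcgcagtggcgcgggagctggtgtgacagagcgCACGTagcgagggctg
Ankrd37: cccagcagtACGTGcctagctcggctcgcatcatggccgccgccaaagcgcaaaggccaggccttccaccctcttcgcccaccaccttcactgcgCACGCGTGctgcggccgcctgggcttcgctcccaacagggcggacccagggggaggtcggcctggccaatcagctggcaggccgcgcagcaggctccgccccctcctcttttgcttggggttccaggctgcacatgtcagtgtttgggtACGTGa
Bnip3: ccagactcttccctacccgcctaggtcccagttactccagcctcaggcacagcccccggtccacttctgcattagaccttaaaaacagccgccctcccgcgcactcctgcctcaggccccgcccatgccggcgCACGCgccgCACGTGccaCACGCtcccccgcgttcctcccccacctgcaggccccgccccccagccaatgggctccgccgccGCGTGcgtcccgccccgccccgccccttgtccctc
Egln2: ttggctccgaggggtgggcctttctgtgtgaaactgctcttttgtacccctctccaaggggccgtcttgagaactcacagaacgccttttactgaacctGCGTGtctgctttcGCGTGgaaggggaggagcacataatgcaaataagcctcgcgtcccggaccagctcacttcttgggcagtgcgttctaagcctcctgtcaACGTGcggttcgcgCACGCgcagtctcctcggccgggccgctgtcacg
Egln3: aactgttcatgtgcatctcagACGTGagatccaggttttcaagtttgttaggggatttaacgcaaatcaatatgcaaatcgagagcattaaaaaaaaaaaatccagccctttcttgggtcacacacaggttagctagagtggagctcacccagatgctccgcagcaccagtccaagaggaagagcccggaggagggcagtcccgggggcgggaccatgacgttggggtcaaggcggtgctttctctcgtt
On GRCm38.p6 these lie at chr10:59323046-59323295 (plus strand), chr8:45999851-46000100 (minus), chr7:138909507-138909756 (minus), chr7:27166803-27167052 (minus) and chr12:54203875-54204124 (minus). The stretch of P4ha1 holds 3 matches, that of Ankrd37 holds 4, that of Bnip3 holds 5, that of Egln2 holds 4 and that of Egln3 holds 1. Of these genes only Egln2 has another window, not shown (chr7:27165729-27165978, minus), with 1 match before its start. A match is a run of letters and not a measured site. With 38 of the 43 genes holding it, genes that rose and genes that fell both did. Of the 5 genes with no match in these windows, Rpe and Hif1an rose in both genotypes, and Gpi1, Tpi1 and Vhl passed in neither. Sequence outside the windows was not searched, and the part of the letters in the LPS changes was not tested.

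In the pentose phosphate pathway the entry enzymes did not pass. The LPS difference was 0.30 in cKO and -0.00444 in WT for G6pdx, the NADPH-producing first enzyme, and 0.35 in cKO and 0.15 in WT for Pgd, which yields NADPH as well. Pgls, Tkt and Taldo1, which encode the lactonase, transketolase and transaldolase, had differences of -0.43 to -0.01 in cKO and -0.39 to -0.22 in WT and did not pass. Under quantile normalization Taldo1 passed as lower in both genotypes (-0.89 in cKO and -0.96 in WT), and Tkt (-0.73) and Pgls (-0.50) in WT. Rpe, the epimerase that makes xylulose 5-phosphate, was the exception among the 6 tested genes. It read 9.49 and 9.43 in cKO LPS cells, 8.83 and 8.76 in cKO 0 h cells, 10.14 and 9.92 in WT LPS cells, and 8.91 and 8.89 in WT 0 h cells. It rose by 0.67 in cKO (SE 0.12, limma adjusted p = 0.00329) and by 1.13 in WT (SE 0.12, limma adjusted p = 0.000173), with no overlap. Rpe shares 17.9% of its exon bases with Kansl1l on the opposite strand. Rpia, the isomerase that makes ribose 5-phosphate, was below the minimum, with 3.0 and 2.65 in cKO LPS cells, 3.07 and 2.78 in cKO 0 h cells, 2.73 and 2.61 in WT LPS cells, and 2.40 and 3.27 in WT 0 h cells, so that LPS and 0 h samples overlapped in each genotype.

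The second question was how cKO cells differed from WT cells after LPS. In this comparison 3 of the 43 tested genes were higher in cKO (Egln2, Pfkfb4 and Ldhb) and 3 were lower (Hif1a, Pdk3 and Rpe). That is 14%, beside 3.97% of all tested genes (1.51% higher and 2.46% lower). At an unadjusted limma p under 0.05 the shares lay closer, with 11 of the 43 (25.6%) beside 21.5% of all tested genes. Genotypes did not overlap for 12 of the 43 genes with higher and 8 with lower values in cKO, beside 53.0% of all tested genes in either direction. The median difference of the 43 genes was -0.08, beside -0.03 for all. Its sign depended on the scaling and the samples. It was 0.07 under quantile normalization, beside -0.00405 for all. With single samples left out it ran from -0.16 (without WT LPS replicate 2) to 0.13 (without WT LPS replicate 1). These LPS samples also enter the LPS comparisons. On GRCm38 the 6 genes lie at chr7:27158658-27166802 (Egln2, minus strand), chr9:108991778-109032228 (Pfkfb4, plus), chr6:142490249-142507957 (Ldhb, minus), chr12:73901375-73947530 (Hif1a, plus), chrX:93764607-93832201 (Pdk3, minus) and chr1:66700831-66719805 (Rpe, plus). Egln2 read 9.97 and 10.12 in cKO, against 8.66 and 9.09 in WT, a difference of 1.17 (SE 0.17, limma adjusted p = 0.0156), or 2.25-fold. Pfkfb4 read 8.13 and 8.27 in cKO, against 7.36 and 7.15 in WT, a difference of 0.95 (SE 0.16, limma adjusted p = 0.0207). Ldhb read 10.12 and 10.09 in cKO, against 9.53 and 9.41 in WT, a difference of 0.64 (SE 0.13, limma adjusted p = 0.0339). All 3 thus stood higher in both cKO samples. Hif1a read 10.35 and 10.21 in cKO, against 10.95 and 11.06 in WT, a difference of -0.73 (SE 0.14, limma adjusted p = 0.0347), or 0.604 of the WT level. Pdk3 read 9.08 and 8.98 in cKO, against 10.34 and 9.62 in WT, a difference of -0.95 (SE 0.21, limma adjusted p = 0.0482). Rpe read 9.49 and 9.43 in cKO, against 10.14 and 9.92 in WT, a difference of -0.56 (SE 0.12, limma adjusted p = 0.0441). The genotypes did not overlap for any of the 6, as for 53.0% of all tested genes.

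None of the 6 passed without cKO LPS replicate 1, cKO LPS replicate 2 or WT LPS replicate 1. All tested genes then gave 0 calls, 0 calls and 14 calls for those 3 samples in turn. At an unadjusted limma p under 0.05 there were 12, 8 and 12 of the 43 genes, beside 1845, 1549 and 1993 of all 11543. The differences stayed between 0.96 and 1.39 for Egln2, between 0.85 and 1.05 for Pfkfb4, between 0.57 and 0.70 for Ldhb, between -0.80 and -0.66 for Hif1a and between -0.67 and -0.45 for Rpe when single samples were left out. Pdk3 ranged from -1.31 without WT LPS replicate 2 to -0.59 without WT LPS replicate 1. With no sample left out, the calls also differed in firmness. Without the minimum level, all 6 were lost. Ldhb, Hif1a, Pdk3 and Rpe lost theirs under quantile normalization or with no variance trend. A correction for GC content and length lost those of Hif1a, Pdk3 and Rpe, and fitting only the groups compared lost those of Pdk3 and Rpe. In the authors' deposited table, 5 of the 6 passed in the same direction, with Egln2 at 1.34 (adjusted p = 1.74e-05) and Pfkfb4 at 1.15 (adjusted p = 0.00657). There Rpe did not pass (adjusted p = 0.152), and Pfkfb3 did, at -1.09 (adjusted p = 0.00924).

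**Figure D4:**
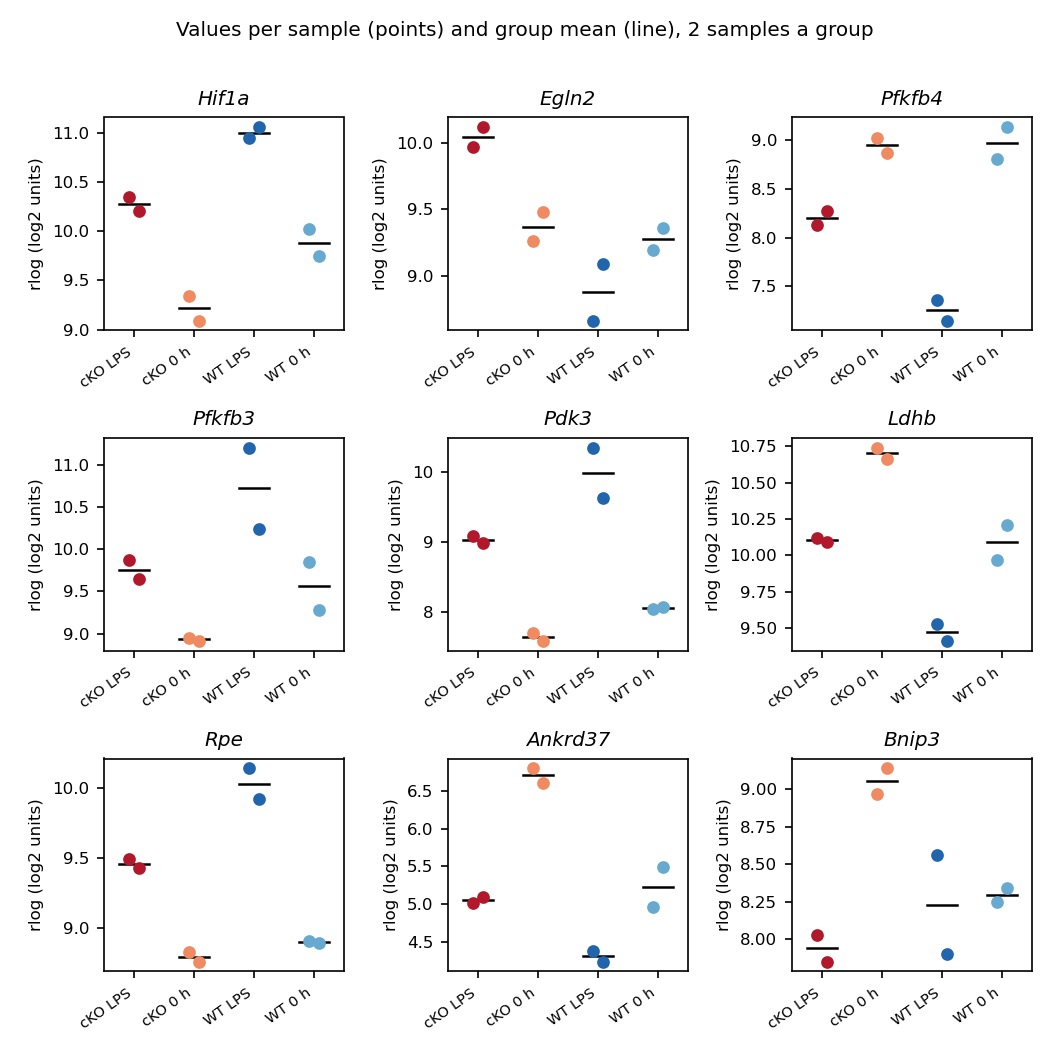
Values of 9 genes in the 8 samples (points, rlog in log2 units) with the group mean (line), in the order cKO LPS, cKO 0 h, WT LPS, WT 0 h. After LPS, Egln2, Pfkfb4 and Ldhb are higher in both cKO samples than in both WT samples, and Hif1a, Pdk3 and Rpe are lower, while Ankrd37 and Bnip3 are highest in cKO 0 h cells.

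Several more genes lay near the threshold after LPS. Car9 read 5.47 and 5.76 in cKO against 4.81 and 4.75 in WT (0.83, SE 0.20, limma adjusted p = 0.0563), and P4ha2 read 4.96 and 5.31 in cKO against 4.19 and 4.36 in WT (0.86, SE 0.24, limma adjusted p = 0.0852). Pfkfb3 read 9.87 and 9.64 in cKO against 11.20 and 10.24 in WT (-0.97, SE 0.30, limma adjusted p = 0.105), a difference that was -1.45 without WT LPS replicate 2 and -0.49 without WT LPS replicate 1. Of the hexokinase and glycolysis genes only Ldhb passed, and of the pentose phosphate genes only Rpe. Among the others, the 95% interval of cKO minus WT was -0.19 to 0.46 for Aldoa, -0.41 to 0.45 for Eno1 and -0.36 to 0.62 for Pkm. It was -0.51 to 0.09 for Pgk1, -0.33 to 0.62 for G6pdx and -0.43 to 0.20 for Hk2. Markers also differed after LPS. The macrophage markers Itgam (-1.11, limma adjusted p = 0.0178) and Mertk (-1.10, limma adjusted p = 0.0197) were lower in cKO, and the other 6 of the 8 did not pass. Both calls were lost in some fits without 1 sample, with an adjusted p of up to 0.158. Over the 8 macrophage markers the mean level per sample was 13.02 and 13.02 in cKO LPS cells, against 13.49 to 13.70 in WT LPS cells. The neutrophil gene S100a8 read 8.23 and 8.35 in cKO, against 7.23 and 7.60 in WT (limma adjusted p = 0.0541), and 6 of the 8 neutrophil genes, Ly6g, Mpo and Elane among them, were below the minimum. The part of these markers in the differences was not tested.

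**Figure D5:**
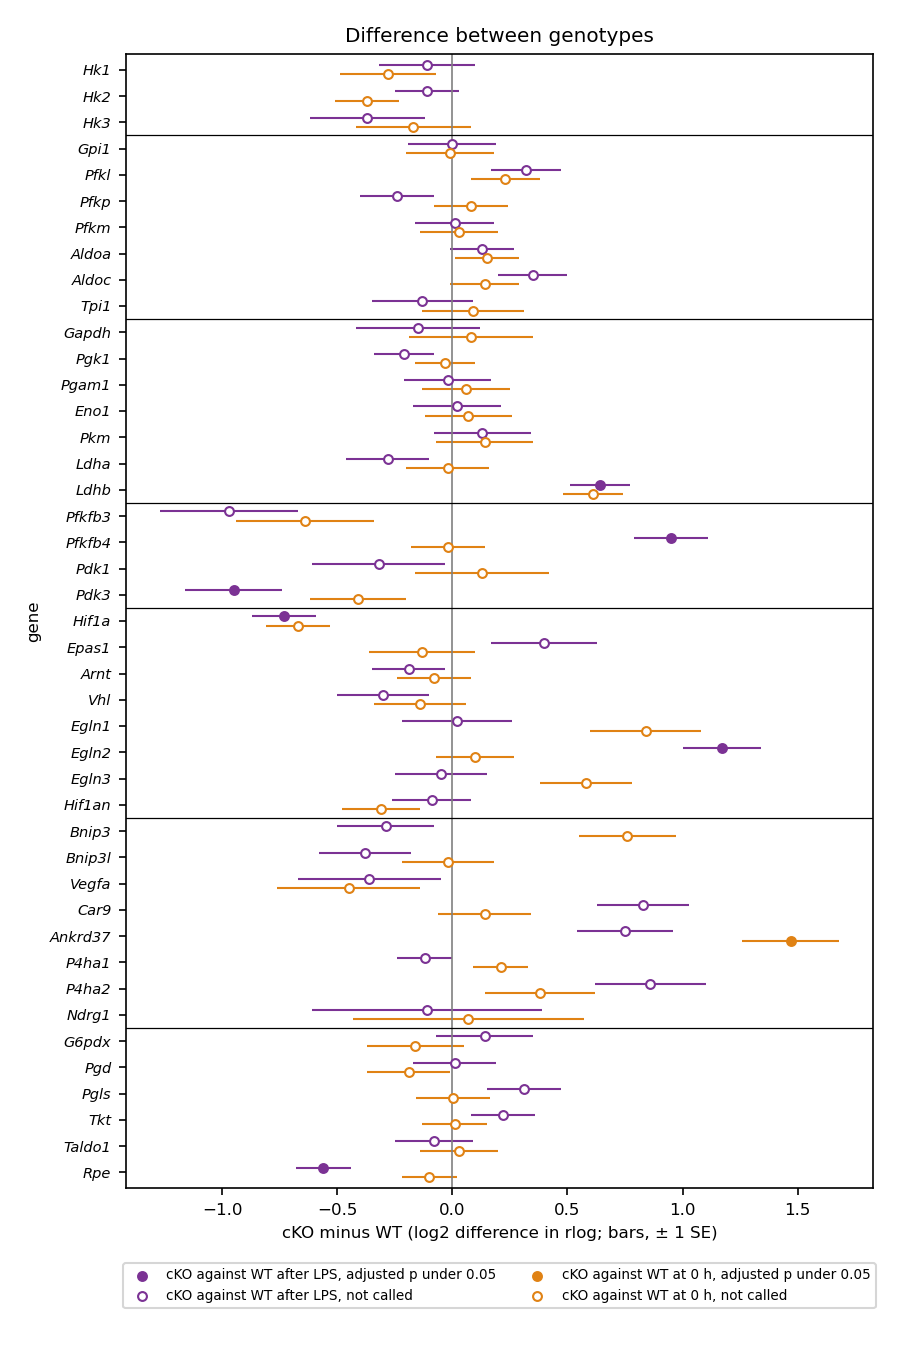
cKO minus WT, as the log2 difference in rlog with 1 SE from limma, for the 43 tested genes by role after LPS (purple, upper) and at 0 h (orange, lower). Filled points passed an adjusted p of 0.05: 6 after LPS and Ankrd37 (1.47) at 0 h.

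At 0 h, Ankrd37 alone passed among the 43 genes (2.33%, beside 0.251% of all tested genes, with 0.052% higher and 0.199% lower). It read 6.80 and 6.61 in cKO against 4.97 and 5.49 in WT, a difference of 1.47 (SE 0.21, limma adjusted p = 0.039), or 2.77-fold. Both cKO samples lay above both WT samples. They did so after LPS too, where the difference of Ankrd37 did not pass (0.68 to 0.82 over single left-out samples). The genotypes did not overlap there in 53.0% of all tested genes. At 0 h the genotypes did not overlap in 41.2% of all tested genes. The call was lost in 12 of 18 alternatives, with an adjusted p of up to 0.221, and among single samples only leaving out WT 0 h replicate 2 kept it. The difference itself stayed between 1.21 and 1.73 over the left-out samples. In the authors' deposited table it was 1.81 (adjusted p = 0.00434). Of the 43 genes, 7 (16.3%) had an unadjusted limma p under 0.05, beside 10.9% of all tested genes. Of these, Egln1, Egln3, Bnip3, Ankrd37 and Ldhb had higher values in cKO and Hk2 and Hif1a lower ones. Bnip3 read 8.97 and 9.14 in cKO against 8.25 and 8.34 in WT (0.76, limma adjusted p = 0.24), and Egln3 read 5.46 and 5.44 in cKO against 4.96 and 4.78 in WT (0.58, limma adjusted p = 0.335). Egln1 read 5.83 and 5.89 in cKO against 4.98 and 5.06 in WT (0.84, limma adjusted p = 0.264). Hif1a read 9.34 and 9.09 in cKO against 10.02 and 9.75 in WT (-0.67, limma adjusted p = 0.151). Of these genes Ankrd37 alone passed, so the higher values of the others and the lower value of Hif1a are descriptions. In the authors' deposited table Bnip3 also passed at 0 h (0.86, adjusted p = 0.0455). The macrophage marker mean was 12.37 and 12.54 in cKO 0 h cells, against 12.87 to 12.96 in WT 0 h cells, and its part was not tested.

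The last comparison asked whether the LPS response itself differed between the genotypes. None of the 43 genes passed, and none of the 11543 (0.0%) did, with 7 of the 43 (16.3%) and 751 of all (6.51%) at an unadjusted limma p under 0.05. The calls made in one genotype and not in the other, such as those of Egln2, Bnip3, Ldha, Pgk1, Pfkfb3, Aldoc and Car9, were therefore not shown to differ between genotypes. The largest values were those of Egln2 (1.08, SE 0.24, limma adjusted p = 0.643), Bnip3 (-1.05, SE 0.29, limma adjusted p = 0.682) and Pfkfb4 (0.97, SE 0.22, limma adjusted p = 0.643). Egln1 (-0.82), Ankrd37 (-0.72), Car9 (0.69) and Rpe (-0.46) were the other 4. For Hif1a the difference in response was -0.06 (95% interval -0.53 to 0.41), with rises of 1.06 in cKO and 1.12 in WT, and cKO minus WT was -0.73 after LPS and -0.67 at 0 h, the last not past the threshold. For Ldhb it was 0.03 (95% interval -0.38 to 0.43), with cKO minus WT at 0.64 after LPS and 0.61 at 0 h.

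Neighbouring genes of the same pathways were counted from lists of other family members, to be read beside the 37.0% of all tested genes called with LPS in cKO and 42.2% in WT. Of 8 glucose and lactate transporter genes, 2 rose and 1 fell with LPS in cKO (37.5% called) and 2 rose and 2 fell in WT (50%). The glucose transporter gene Slc2a6 rose most, by 2.32 (SE 0.14) in cKO and 2.72 (SE 0.14) in WT, and Slc2a8 fell most, by 1.15 in cKO and 1.40 in WT. Slc2a1, the main glucose transporter of many cells, rose by 0.77 in cKO (limma adjusted p = 0.0451) and 0.91 in WT (limma adjusted p = 0.0208). Its calls were lost in 8 of 19 alternatives in cKO (0.53 without cKO LPS replicate 1 and 0.54 without cKO 0 h replicate 2) and in 5 of 19 in WT (0.57 without WT LPS replicate 1). None of the 8 passed between genotypes after LPS, with 1 at an unadjusted limma p under 0.05. Of 12 tested isoforms and bypass enzymes, 2 rose and 3 fell in cKO (41.7%) and 3 rose and 4 fell in WT (58.3%), led upward by Eno2 (2.05) in cKO and Minpp1, a phosphatase of inositol phosphates and 2,3-bisphosphoglycerate, in WT (2.49), and downward by Bpgm (-1.14) in cKO and Pgm2 (-1.11) in WT. Among 11 genes of the pyruvate dehydrogenase complex and the pyruvate carrier, 3 fell and none rose in cKO, and 2 fell and 1 rose in WT (27.3% in each). The kinase gene Pdk2 fell by 2.52 in cKO (SE 0.25) and by 2.93 in WT (SE 0.25), in the direction opposite to Pdk3. Dld, a subunit gene of the complex, was lower in cKO than in WT LPS cells (-0.66, SE 0.11, limma adjusted p = 0.0221).

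Of 14 glycogen genes, 1 rose and 4 fell in cKO (35.7%) and none rose and 4 fell in WT (28.6%). Gbe1, the branching enzyme, was the one that rose in cKO (0.38), a call lost in 9 of 19 alternatives, among them each of the 4 fits without a cKO sample. All 7 side enzymes of the pentose phosphate pathway had negative LPS differences in both genotypes, of which 4 passed in cKO (57.1%) and 5 in WT (71.4%), where 17.5% of all tested genes fell in cKO and 19.7% in WT. Pgm2l1 was the lowest in both genotypes (-0.79 in cKO and -1.17 in WT), and Prps1, which makes the ribose donor of nucleotides, had -0.78 in cKO and -0.73 in WT. Of 22 other hypoxia-regulated genes, 6 rose and 7 fell in cKO (59.1%) and 5 rose and 4 fell in WT (40.9%). Ak4 rose most, by 1.43 in cKO and 1.69 in WT, and Fos fell most, by 1.34 in cKO and 1.28 in WT. The calls of Fos were lost in 8 of 19 alternatives in cKO and 9 of 19 in WT, where the difference ran from -1.95 without WT LPS replicate 1 to -0.62 without WT LPS replicate 2. Between genotypes after LPS, Hilpda, a lipid droplet protein induced by HIF, was lower in cKO (-1.28, SE 0.11, limma adjusted p = 0.00391), as was Lox, a collagen cross-linking enzyme (-1.11, SE 0.18, limma adjusted p = 0.021), and Mif, a cytokine, was higher (0.51, SE 0.11, limma adjusted p = 0.0456). Hilpda was also lower in cKO 0 h cells (-0.89, limma adjusted p = 0.0284), where Ankrd37, likewise known as a HIF target, was higher. The 0 h call of Hilpda was lost in 7 of 18 alternatives, 5 of them without a single sample, with an adjusted p of up to 0.19. Without cKO LPS replicate 1 or cKO LPS replicate 2, none of Dld, Hilpda, Lox and Mif passed after LPS, and without WT LPS replicate 1 or WT LPS replicate 2 only Hilpda of these 4 did. Over single left-out samples the differences ran from -0.72 to -0.61 for Dld, from -1.34 to -1.23 for Hilpda, from -1.31 to -0.9 for Lox and from 0.48 to 0.54 for Mif.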

How the data were processed

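RNA of 8 samples (4 groups of 2) was sequenced. Per the submitters' processing notes, CASAVA, HISAT2 2.1.0, featureCounts, DESeq2 and the genome GRCm38 were used, with no roles or settings given. Whether counting used the strand, and how reads matching more than 1 gene were handled, is not given in the sources used here. The authors deposited 1 table of 55226 genes with rlog values, which are on a log2 scale. Per the file headers, 4 comparisons by the authors stand beside them, each with a log2 fold change, a p-value and its adjusted form. No counts were used, so no counting interval can be given.

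The 11543 genes whose rlog averaged 3 or more were fitted with limma 3.58.1 in R 4.3.3, with 4 group means over all 8 samples and a variance trend on the mean, which gave 4 residual degrees of freedom and 4.4 borrowed across genes. The p-values were adjusted by Benjamini-Hochberg over all tested genes of a comparison, and intervals are 95%. The script was tested on simulated data. Levels per kilobase subtract the log2 of the merged exon length in GENCODE M21 (GRCm38), in which all 46 genes were matched. Shared sequence is the share of 50-base stretches of the longest coding transcript found in a transcript of another gene, and 17 of the 46 genes had at least 10%.

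The genes and lists were chosen with earlier results of these data known. Values in every sample are given for genes called between genotypes, for the 2 largest called rises and falls of each role with LPS, for isoform sets and for genes below the minimum. Bnip3, Car9 and the other genes given by sample outside this rule were chosen after their values were seen, as were Slc2a1, Prps1 and the markers named. Some genes of these lists are not reported here.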

Additional observations from a re-analysis of the deposited data

Results flagged for a closer look

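Egln2 was singled out because its LPS samples moved in opposite directions in the genotypes. Both cKO samples after LPS (9.97 and 10.12) lay above both at 0 h (9.26 and 9.48), and both WT samples after LPS (8.66 and 9.09) lay below both at 0 h (9.19 and 9.36). The difference between the responses was 1.08 on the log2 scale (SE 0.24). Its limma p was 0.00171, and after adjustment over all tested genes it was 0.643, so the difference did not pass.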

How the results depend on the processing

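The LPS totals of the 43 genes stayed within 1.5 times under all 19 alternatives, but their directions did not: quantile normalization gave 9 higher and 14 lower in cKO (10 and 6 in the reported fit) and 9 higher and 17 lower in WT (12 and 7). Single left-out samples gave 15 to 20 calls in cKO and 14 to 20 in WT, and all tested genes gave 2684 to 4468 calls in cKO. The genotype counts did not keep. Hif1a, Pdk3 and Rpe, lower in cKO after LPS, lost their calls with quantile normalization, no variance trend or a GC and length correction. The calls left there were all higher in cKO. With the replicate block added to the correction, 3 genes were higher and 3 lower. GC content of the longest transcript was 39.2% to 47.7% for Hif1a, Pdk3 and Rpe. It was 53.0% to 62.2% for Egln2, Pfkfb4 and Ldhb, and its part was not tested. After LPS, the 6 calls became 0 with no filter on low values, 2 with quantile normalization, 2 with no variance trend, 3 with a GC and length correction and 0 to 4 without single samples, while the replicate block gave 8, adding Pfkfb3 and P4ha2. All tested genes (458) became 208 with no filter, 235 with quantile normalization, 301 with no trend and 0 to 582 without single samples. At 0 h, the 1 call became 0 with no filter, a mean of at least 5, no trend, only the groups compared or the GC and length correction, and 0 to 1 without single samples. All tested genes (29) became 114 with no filter, 9 with no trend, 0 with only the groups compared and 2 to 128 without single samples. For the difference in response, all tested genes (0) became 10 with no filter. The cause was not tested. Of single values that passed in the reported or the alternative fit, 2 turned: Ldha (-0.11) and Pgk1 (-0.00118) with LPS in WT under quantile normalization. Changes of sign in values that passed in neither fit were not counted. An example is Bnip3 with LPS in WT, from -0.40 to 0.27 over single left-out samples.

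Within a genotype, the labels give 0 h and LPS samples the same numbers, and they do not say what a number marks. With a replicate block within each genotype, 11 of the 43 genes rose and 11 fell with LPS in cKO. In WT, 12 rose and 10 fell. All tested genes then gave 4724 calls in cKO and 5345 in WT. Replicate differences correlated at 0.31 within cKO, 0.22 within WT, 0.20 between genotypes after LPS and -0.04 at 0 h. With the number as a replicate block shared by both genotypes, all tested genes gave 804 calls between genotypes after LPS. At 0 h they gave 72, or 69 with the GC and length correction added.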
